A study of Mus musculus with 12 samples.

Results

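The 10 genes described here encode muscle atrophy ubiquitin ligases: Fbxo32, Trim63, Fbxo30, Fbxo31, Fbxo40, Fbxo21, Traf6, Trim32, Stub1 and Cblb. They were chosen by name, with earlier results of these data known, and all 10 were found among the 13244 genes listed in all 3 tables of the series. RNA sequencing was done on the tibialis anterior, a fast muscle of the lower hindlimb, of C57BL/6J mice. The KPC_UA group (n = 4) carried KPC tumours and ate standard chow with ursolic acid, a plant triterpenoid. The KPC group (n = 4) carried the same tumours and ate standard chow without it. The Sham group (n = 4) was tumour-free and ate standard chow. KPC cells are a mouse pancreatic cancer line, here injected into the pancreas, so the tumours come from injected cells and not from the animals' own genome. Whether Sham mice were operated on, and the age and sex of the animals, are not given in the labels. Each library is labelled as a replicate of its group; no label says that it is a separate animal, so the p-values measure the spread between these libraries. The design asks whether ursolic acid alters muscle RNA in tumour-bearing mice, which the labels describe as cachectic.

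A ubiquitin ligase picks out a protein and directs the transfer of ubiquitin onto it, which often marks it for the proteasome. F-box proteins do this as the exchangeable receptor of a complex built on Skp1 and the cullin Cul1, whereas RING and U-box ligases bind the ubiquitin-carrying E2 enzyme themselves. In wasting muscle, Fbxo32 (atrogin-1, also MAFbx) and Trim63 (MuRF1) are the classic atrophy markers, and forkhead (FoxO) factors and the glucocorticoid receptor are their best known activators. Some of the other members act on growth signalling, on the thin filament or on misfolded proteins.

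The sequence before the Trim63 start is shown because it is the member with the highest RNA level and the widest spread here, and because it holds the motifs of both activators side by side. Beside it, Fbxo31 is shown as a member whose libraries ran in the same order as for Trim63 within KPC and within KPC_UA. Fbxo40 is shown as a muscle ligase whose 3 group means were alike. Each run is the 250 bases before the start of transcription in RefSeq (GRCm38.p6), on the gene's strand, with motif matches in capitals.
Trim63, chr4:134314870-134315119, plus strand: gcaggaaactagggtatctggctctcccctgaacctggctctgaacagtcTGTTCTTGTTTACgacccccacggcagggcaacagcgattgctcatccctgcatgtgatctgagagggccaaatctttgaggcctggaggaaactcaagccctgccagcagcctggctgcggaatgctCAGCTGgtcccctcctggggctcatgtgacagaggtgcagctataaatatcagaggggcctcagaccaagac
Fbxo31, chr8:121578807-121579056, minus strand: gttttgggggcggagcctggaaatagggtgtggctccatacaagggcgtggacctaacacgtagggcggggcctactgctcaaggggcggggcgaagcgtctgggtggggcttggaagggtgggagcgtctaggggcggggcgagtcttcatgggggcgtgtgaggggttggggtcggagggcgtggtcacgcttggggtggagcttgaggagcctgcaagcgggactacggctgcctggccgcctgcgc
Fbxo40, chr16:36990468-36990717, minus strand: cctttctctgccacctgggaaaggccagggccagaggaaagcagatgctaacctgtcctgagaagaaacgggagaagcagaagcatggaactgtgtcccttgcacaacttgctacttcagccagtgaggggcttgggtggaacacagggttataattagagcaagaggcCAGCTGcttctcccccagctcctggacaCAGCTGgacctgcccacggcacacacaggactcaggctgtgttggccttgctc

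Both strands were searched for the forkhead core GTAAACA, the forkhead insulin response core CAAAACA, the glucocorticoid receptor motif AGAACA, the same motif as a palindrome, and the E-box CAGCTG bound by myogenic factors. RefSeq windows of 300 bases were at hand for 9 of the 10 members (not Fbxo32), with 2 for Fbxo40. In the Trim63 window, AGAACA lay on the minus strand at position -200 from the start, and GTAAACA followed directly on the same strand (-194) with no shared base, so the strand shown reads TGTTCT and then TGTTTAC. Among all 32851 RefSeq windows, 3.65% held GTAAACA and 19.0% held AGAACA. Of the member windows, GTAAACA was found in the Trim63 window alone. The core CAAAACA was found in the Traf6 window (-177), as in 6.28% of all windows, and the E-box in those of Trim63 (-72), Fbxo40 (-81 and -53) and Trim32 (-107), as in 16.3% of all. The second Fbxo40 window held AGAACA (-176) and an E-box (-89). Windows of Fbxo30, Fbxo31, Fbxo21, Stub1 and Cblb held none of these letters. The exact palindrome, AGAACA and TGTTCT with any 3 bases between, was present in 3 windows of all genes and in none of the members'. In the Trim63 window the letters before TGTTCT read TGAACAGTC, so its first part differs from AGAACA in the first letter. A match is a description of the letters, not a binding site.

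Levels are given as RPKM, reads per kilobase of exon per 1000000 reads. The library size used was adjusted by TMM, a normalisation between libraries, and was not the plain number of reads. Levels were computed for all 12 libraries on 1 scale, so that genes can be set beside each other. Each library held 22306724 to 31966610 reads in the listed genes. The libraries carried the RNA of fast muscle: the 8 fast-fibre markers summed to 57208 to 75067 RPKM in KPC_UA, 56037 to 63508 in KPC and 60133 to 72750 in Sham, and the 4 slow-fibre markers stayed between 6.18 and 29.9 RPKM in all 12. The KPC libraries differed most among themselves, with pairs up to 1.24 apart (root mean square log2 difference over genes), against at most 0.574 between libraries within the other groups. The summed level of 8 macrophage and neutrophil markers was 11.1 to 16.6 RPKM in KPC_UA, 12.8 to 33.5 in KPC and 6.83 to 11.1 in Sham, with 1 of the 8 at 0 in at least 1 library. That of 6 red cell markers was 124 to 795, 137 to 530 and 36.5 to 171 RPKM in KPC_UA, KPC and Sham, and that of 5 fibro-adipogenic markers was 24.7 to 36.5, 17.0 to 30.6 and 35.3 to 55.2 RPKM. The 3 measured tendon markers summed to 6.11 to 21.6, 4.08 to 12.1 and 21.5 to 28.2 RPKM, and the 3 measured adipocyte markers to 3.07 to 14.6, 2.47 to 4.41 and 7.28 to 19.6 RPKM, in KPC_UA, KPC and Sham. Liver markers (Alb, Apoa1, Ttr) and epithelial markers (Krt8, Krt18, Krt19, Epcam) were not listed in all tables. The KPC and Sham ranges were apart for the macrophage and neutrophil, fibro-adipogenic, tendon and adipocyte sums. They overlapped for the fibre and red cell sums, and for those of endothelial, satellite cell and Schwann cell markers. The part of marker levels in the results below was not tested. In whole muscle, fewer cells of a type and less RNA per cell cannot be told apart.

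**Figure D1:**
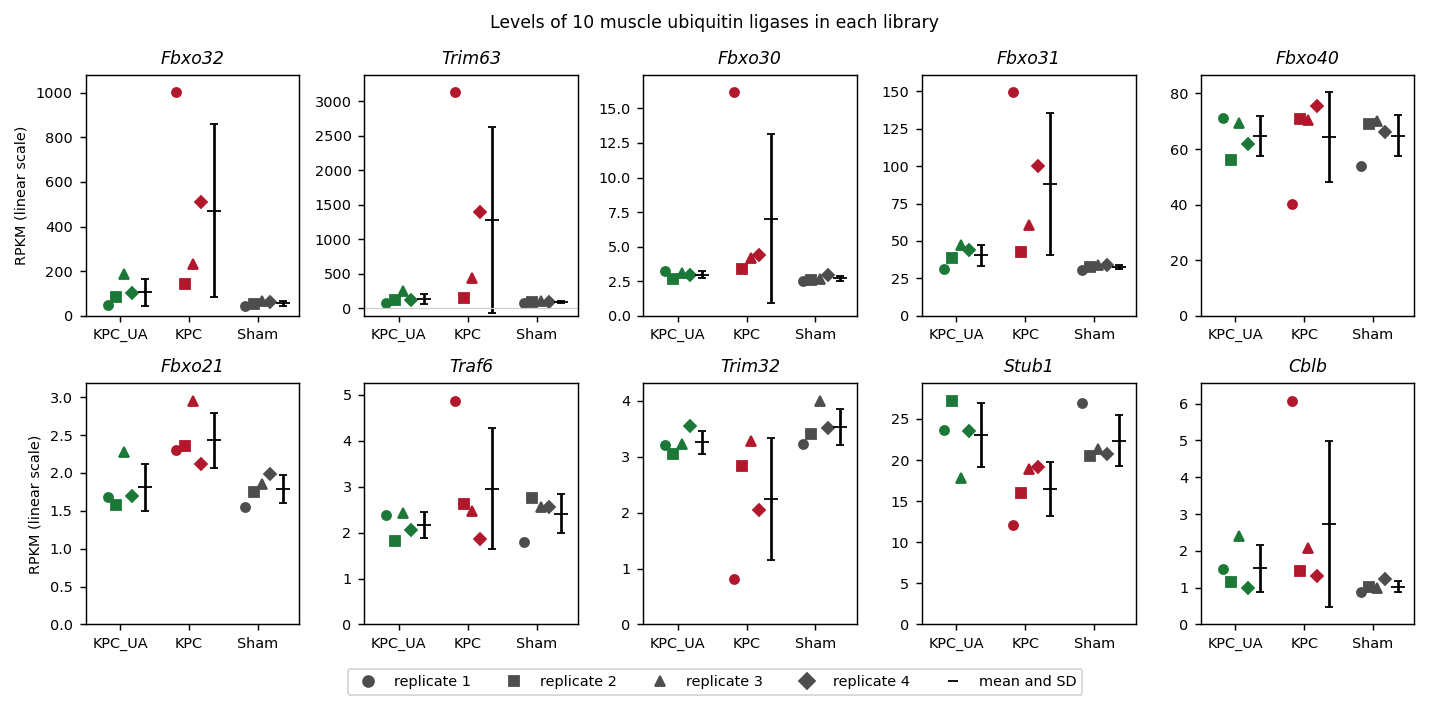
Level of each ligase in RPKM (vertical axis, linear, 1 scale per panel) in the 4 libraries of KPC_UA, KPC and Sham; the shape marks the replicate number, and the black mark and bar are the mean and SD (n = 4). KPC replicate 1 was highest for Fbxo32, Trim63, Fbxo30, Fbxo31, Traf6 and Cblb, and lowest for Fbxo40, Trim32 and Stub1.

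In tumour-bearing mice on standard chow, the RNA of Fbxo32 was higher in all 4 libraries than in any Sham library, and it was the 1 member that passed the main test. Trim63, Fbxo30, Fbxo31, Fbxo21 and Cblb were also higher in all 4 KPC libraries than in any Sham library, but did not pass. Stub1 was lower in all 4. The main test, limma on the log2 scale over all genes, with adjusted p-values under 0.05 counted as called, called 1 of the 10 members and 1.18% of the 13542 genes tested. Groups without overlap were seen for 6 members on the higher side, against 10% of all genes, and for 1 member on the lower side, against 9.11% of all genes. The authors' deposited table called 5 members (Fbxo32, Trim63, Fbxo31, Cblb and Fbxo30) and 11.8% of genes.

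Fbxo32 (chr15:58175879-58214932, minus strand, GRCm38; 6976 exonic bases) is the F-box receptor named atrogin-1. Its level was 1002, 143, 232 and 510 RPKM in KPC replicates 1 to 4, against 44.3, 51.6, 67.9 and 61.6 RPKM in Sham replicates 1 to 4. The lowest KPC library had 2.11 times the level of the highest Sham library, although the KPC libraries themselves ranged over 6.99-fold. KPC exceeded Sham by a log2 fold change of 2.71 ± 0.51 (SE, as for each fold change below; adjusted p = 0.0432, limma), and the authors' deposited table gave 3.08 with an adjusted p of 5.63e-07. An antisense RNA, Gm15943, shares 2.67% of its exonic bases. Without KPC replicate 1 the log2 fold change was 2.21 (adjusted p = 0.0224, limma). The call was lost without KPC replicate 3 (adjusted p = 0.0826), without KPC replicate 4 (adjusted p = 0.122) and without any 1 of the Sham libraries (adjusted p = 0.112 to 0.153), all by limma; in those fits no gene of the table was called.

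Trim63 (chr4:134315120-134329629, plus strand; 2842 exonic bases) is MuRF1, a RING ligase of the sarcomere that targets thick-filament proteins. It stood at 3140, 146, 434 and 1390 RPKM in the KPC libraries, against 74.8, 91.6, 98.6 and 89.2 RPKM in the Sham libraries. KPC replicates 1 and 4 were far above the Sham range and KPC replicate 2 was 1.49 times its highest value. The log2 fold change of 3.05 ± 0.76 was larger than that of Fbxo32 but came with a larger SE, and did not pass (adjusted p = 0.0809, limma). The authors' deposited table gave 3.87 with an adjusted p of 1.50e-06. Without KPC replicate 2, the library nearest to Sham, it passed in limma with 3.82 (adjusted p = 0.00771). That fit called 1352 genes, against 160 with all libraries. Trim63 was lowest in that KPC library, so leaving it out is not a test of its own. The Trim63 log2 fold change was 2.34 (adjusted p = 0.0612, limma) without KPC replicate 1 and 2.75 (adjusted p = 0.169, limma) without KPC replicate 4.

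Of the other F-box members, none passed the main test. Fbxo31 (chr8:121549440-121578806, minus strand; 5482 exonic bases), best known as a cell cycle and DNA damage F-box protein, had 149, 42.7, 60.3 and 100.1 RPKM in KPC and 30.9, 32.4, 34.0 and 33.8 RPKM in Sham. Its log2 fold change was 1.27 ± 0.34 (adjusted p = 0.0901, limma), which became 1.57 (adjusted p = 0.0171, limma) without KPC replicate 2. Fbxo31 was also lowest in that KPC library, and the fit without it called 1352 genes, so this is not a test of its own. Leaving out KPC replicate 1 or 4 gave Fbxo31 values of 0.96 (adjusted p = 0.0699) and 1.17 (adjusted p = 0.174), both by limma. Fbxo30 (chr10:11281330-11298052, plus strand; 5197 exonic bases), also called MUSA1 and held down by BMP signalling in mouse muscle, had 16.2, 3.40, 4.16 and 4.40 RPKM in KPC and 2.52, 2.61, 2.68 and 2.97 RPKM in Sham. KPC replicates 2, 3 and 4 lay close above the Sham range and KPC replicate 1 stood far off. The log2 fold change was 1.07 ± 0.43 (adjusted p = 0.168, limma) and 0.56 (adjusted p = 0.0725, limma) without that library.

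Fbxo21 (chr5:117976730-118010201, plus strand; 5545 exonic bases), named SMART in mouse atrophy work, had 2.30, 2.35, 2.95 and 2.11 RPKM in KPC and 1.55, 1.75, 1.86 and 1.98 RPKM in Sham. The groups were apart by a narrow gap, and the log2 fold change was 0.45 ± 0.18 (adjusted p = 0.167, limma). Fbxo40 (chr16:36963460-36990467, minus strand; 5517 exonic bases) is restricted to striated muscle and directs the breakdown of the insulin receptor substrate Irs1. It had 40.4, 70.8, 70.4 and 75.5 RPKM in KPC, against 54.0, 69.0, 70.1 and 66.1 RPKM in Sham, so 3 KPC libraries were above and 1 was below every Sham library. The log2 fold change was -0.04, with a 95% interval of -0.52 to 0.45 (adjusted p = 0.927, limma).

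Cblb (chr16:52031225-52208048, plus strand; 10475 exonic bases), a RING ligase that removes Irs1 in unloaded mouse muscle, had 6.07, 1.45, 2.09 and 1.32 RPKM in KPC and 0.887, 1.01, 0.987 and 1.23 RPKM in Sham. Its log2 fold change was 1.12 ± 0.43 (adjusted p = 0.158, limma) and 0.63 (adjusted p = 0.108, limma) without KPC replicate 1. Traf6 (chr2:101678429-101701669, plus strand; 7883 exonic bases) builds signalling ubiquitin chains in the NF-kappaB pathway. It had 4.86, 2.63, 2.48 and 1.86 RPKM in KPC and 1.80, 2.75, 2.55 and 2.56 RPKM in Sham. The groups overlapped, with KPC replicate 1 alone above the Sham range, and the log2 fold change of 0.23 ± 0.29 (adjusted p = 0.636, limma) turned to -0.05 without it. It was 0.42 without KPC replicate 4 and 0.089 without Sham replicate 1.

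Trim32 (chr4:65604986-65616238, plus strand; 3229 exonic bases, lying within Astn2 but sharing no exonic base with it) is a ligase of desmin and the thin filament. Its level was 0.815, 2.83, 3.28 and 2.04 RPKM in KPC and 3.22, 3.40, 3.99 and 3.50 RPKM in Sham. KPC replicate 3 lay just inside the Sham range and the other 3 lay below it; its log2 fold change came to -0.81 ± 0.37 (adjusted p = 0.213, limma), and to -0.40 (adjusted p = 0.268, limma) without KPC replicate 1. Stub1 (chr17:25830505-25833404, minus strand; 2561 exonic bases) is CHIP, the U-box ligase that works with the Hsc70 chaperone. It had 12.1, 16.0, 18.9 and 19.1 RPKM in KPC and 26.9, 20.5, 21.3 and 20.7 RPKM in Sham, with a log2 fold change of -0.44 ± 0.19 (adjusted p = 0.187, limma). Jmjd8 on the other strand shares 42.3% of Stub1's exonic bases, and no label says whether strand was used in counting, so the Stub1 values are uncertain.

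In the authors' deposited table, log2 fold changes of 1.44 for Fbxo31 (adjusted p of 0.00273), 1.43 for Cblb (0.0252) and 1.41 for Fbxo30 (0.0307) passed as well. The smallest adjusted p there among the other 5 members was 0.0975, for Fbxo21.

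**Figure D2:**
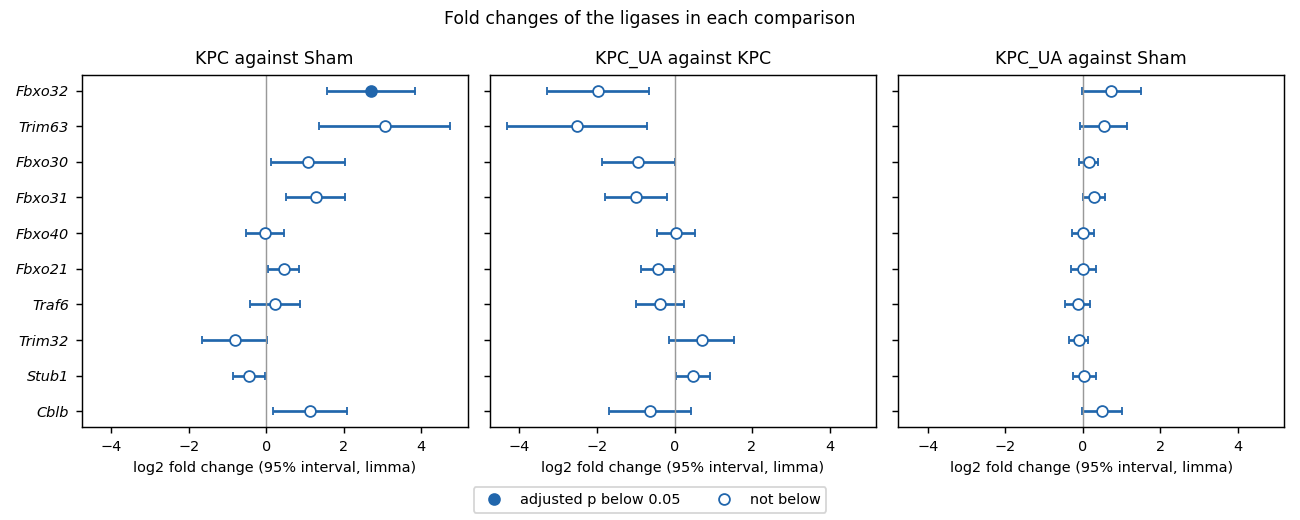
Log2 fold change of each ligase (horizontal axis, limma, with its 95% interval) in the 3 comparisons; filled points have an adjusted p below 0.05. Fbxo32 in KPC against Sham, at 2.71, is the filled point.

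In tumour-bearing mice fed ursolic acid, Fbxo32 and Trim63 were lower on average than in tumour-bearing mice on standard chow, but the groups overlapped and no member passed the main test. In KPC_UA against KPC, limma called 0 of 10 members and 0% of 13522 genes, with a smallest adjusted p of 0.382; at an unadjusted p under 0.05 it had 5 members and 1714 genes. The tests by edgeR on whole reads called 0 members and DESeq2 called 2. The authors' deposited table also called 2 members, Fbxo32 and Trim63, and 0.764% of genes. This comparison shares the KPC libraries with the one above, so the 2 are not independent.

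Fbxo32 had 46.0, 83.2, 186 and 102 RPKM in KPC_UA replicates 1 to 4, against 1002, 143, 232 and 510 RPKM in KPC. KPC_UA replicates 1, 2 and 4 were below every KPC library, and replicate 3 was above KPC replicate 2. The log2 fold change was -1.97 ± 0.60 (95% interval -3.30 to -0.65; adjusted p = 0.382, limma), and in the authors' deposited table it was -2.19 with an adjusted p of 0.0269. Trim63 had 77.7, 112, 245 and 126 RPKM in KPC_UA, against 3140, 146, 434 and 1390 RPKM in KPC. The same 3 KPC_UA libraries lay below all KPC libraries and replicate 3 lay between KPC replicates 2 and 3. Its log2 fold change was -2.51 ± 0.81 (95% interval -4.31 to -0.72; adjusted p = 0.382, limma), and the authors' deposited table gave -3.21 with an adjusted p of 0.0325. Without KPC replicate 1 the log2 fold changes were -1.47 for Fbxo32 and -1.80 for Trim63, each with an adjusted p of 0.544 by limma.

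Fbxo30 was the member whose groups did not overlap: 3.22, 2.64, 3.09 and 2.98 RPKM in KPC_UA, against 16.2, 3.40, 4.16 and 4.40 RPKM in KPC. A gap of this kind was seen for 4.14% of genes on the lower side and 3.78% on the higher side. The gap was narrow, 1.06-fold between the nearest libraries, and the log2 fold change of -0.93 ± 0.43 did not pass (adjusted p = 0.382, limma); it was -0.41 without KPC replicate 1. Fbxo31 had 31.0, 38.8, 47.4 and 44.0 RPKM in KPC_UA and 42.7 to 149 RPKM in KPC, with a log2 fold change of -0.99 ± 0.36. Fbxo21 had 1.69, 1.58, 2.28 and 1.69 RPKM in KPC_UA and 2.11 to 2.95 RPKM in KPC, a log2 fold change of -0.44 ± 0.19.

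Among the ligases of insulin signalling and the rest, no value passed. Fbxo40 had 71.3, 56.1, 69.5 and 61.7 RPKM in KPC_UA and 40.4 to 75.5 RPKM in KPC, a log2 fold change of 0.04 with a 95% interval of -0.45 to 0.52. Cblb had 1.52, 1.16, 2.41 and 0.998 RPKM in KPC_UA and 1.32 to 6.07 RPKM in KPC, and its log2 fold change of -0.64 ± 0.47 was -0.14 without KPC replicate 1. The thin-filament ligase Trim32 stood at 3.20, 3.04, 3.23 and 3.55 RPKM in KPC_UA, within 1.17-fold of each other, against 0.815 to 3.28 RPKM in KPC (log2 fold change 0.70 ± 0.37, and 0.28 without KPC replicate 1). Stub1 had 23.6, 27.2, 17.8 and 23.6 RPKM in KPC_UA and 12.1 to 19.1 RPKM in KPC, a log2 fold change of 0.48 ± 0.20, with the same overlap with Jmjd8. Traf6 ranged from 1.82 to 2.43 RPKM in KPC_UA and from 1.86 to 4.86 RPKM in KPC, a log2 fold change of -0.37 ± 0.28. That of Traf6 was -0.09 without KPC replicate 1 and -0.57 without KPC replicate 4. The adjusted p-values of these 7 members were 0.382 to 0.936 in limma.

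**Figure D3:**
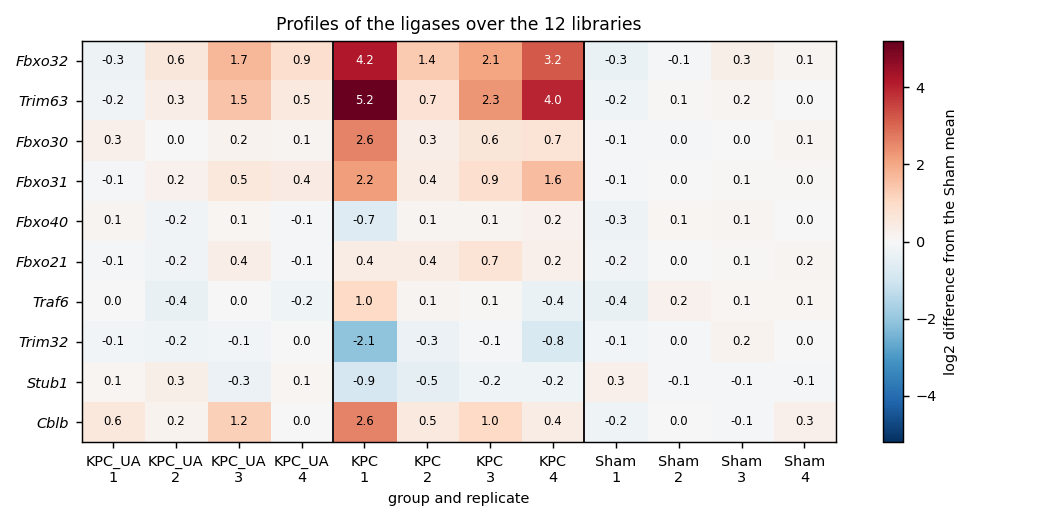
Log2 difference of each ligase from its own Sham mean (colour and printed value) in the 12 libraries, in columns by group and replicate. Trim63 runs from 0.73 in KPC replicate 2 to 5.16 in KPC replicate 1, while Fbxo40 stays between -0.68 and 0.23 in KPC.

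In tumour-bearing mice fed ursolic acid, the mean level lay nearer to the Sham mean than to the KPC mean for all 10 members, a description with no test of its own. The Fbxo40 means were nearly equal, 64.7, 64.3 and 64.8 RPKM in KPC_UA, KPC and Sham. By limma without KPC replicate 1, the log2 fold change of KPC_UA against KPC was -0.14 for Cblb and -0.09 for Traf6. Both were smaller in size than their values against Sham, 0.49 and -0.14. For the other members the value against KPC stayed the larger in size. Fbxo32 and Trim63 were above the Sham range in 3 of 4 libraries. The comparison of KPC_UA with Sham shares a group with each of the others. In KPC_UA against Sham, limma called 0 of 10 members and 0% of 13567 genes, with 0 members and 1077 genes at an unadjusted p under 0.05; DESeq2 and edgeR also called 0 members. The authors' deposited table called 0 members and 0.693% of genes, and no member was without overlap, against 2.08% of genes on the higher and 2.02% on the lower side. Fbxo32 averaged 104 ± 59.4 RPKM in KPC_UA and 56.3 ± 10.5 RPKM in Sham (SD, n = 4 each); KPC_UA replicate 1 lay inside the Sham range and the other 3 lay above it. The log2 fold change was 0.74, with a 95% interval of -0.01 to 1.49 (adjusted p = 0.635, limma). Trim63 averaged 139.9 ± 72.6 RPKM in KPC_UA and 88.5 ± 9.97 RPKM in Sham, again with 3 of 4 libraries above, and a log2 fold change of 0.54 with an interval of -0.06 to 1.15. Fbxo30 and Fbxo31 also had 3 of 4 libraries above the Sham range, with log2 fold changes of 0.15 and 0.29. Cblb had 2 above it and a log2 fold change of 0.49. For Fbxo40, Fbxo21, Traf6, Trim32 and Stub1 the log2 fold changes lay between -0.14 and 0.04. Without KPC_UA replicate 3 the values were 0.40 for Fbxo32, 0.23 for Trim63 and 0.24 for Cblb (adjusted p = 0.981 each, limma). The 95% intervals of Fbxo32, Trim63 and Cblb reach above a log2 fold change of 1, so a change of that size in these 3 is within what 4 libraries a group leave uncertain.

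The members differed widely in level. In KPC_UA, Trim63 (139.9 RPKM), Fbxo32 (104) and Fbxo40 (64.7) led, with overlapping ranges between neighbours, followed by Fbxo31 (40.3) and Stub1 (23.0), which were apart from their neighbours. Trim32 (3.25) overlapped with Fbxo30 (2.98), which was apart from Traf6 (1.82 to 2.43 RPKM over libraries), and Traf6, Fbxo21 (1.81) and Cblb (1.52) overlapped as neighbours. In KPC, Trim63 (1278 ± 1351 RPKM; SD, n = 4) and Fbxo32 (472 ± 386) led, Fbxo31 (88.1) stood before Fbxo40 (64.3) with overlapping ranges, and after Stub1 (16.5), which was apart from Fbxo40, the order was Fbxo30 (7.03), Traf6 (2.96), Cblb (2.73), Fbxo21 (2.43) and Trim32 (2.24), each overlapping with the next. In Sham, Trim63 (88.5 RPKM) stood apart from Fbxo40 (64.8), which overlapped with Fbxo32 (56.3); Fbxo31 (32.8), Stub1 (22.4) and Trim32 (3.53) were each apart from the next, Fbxo30 (2.70), Traf6 (2.41) and Fbxo21 (1.78) overlapped as neighbours, and Cblb (1.03) was last. Fbxo32 and Trim63 together made up 60.8 ± 11.1% of the members' summed level in KPC_UA, 83.0 ± 12.2% in KPC and 52.3 ± 2.25% in Sham. As a share of a library's reads counted in the 13244 genes listed in all 3 tables, they took 0.113 ± 0.063% in KPC_UA, 0.660 ± 0.586% in KPC and 0.0654 ± 0.0089% in Sham (SD, n = 4 each). In KPC replicate 1 that share was 1.44% (95% Wilson interval 1.43 to 1.44%, counting error only), or 320295 reads.

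The spread within KPC was shared by several members. The library order 1, 4, 3, 2 from high to low held for 4 members, Fbxo32, Trim63, Fbxo31 and Fbxo30. KPC replicate 1 was the highest library for 6 members and the lowest for 3. Trim32 ran 3, 2, 4, 1. The highest KPC library exceeded the lowest by 21.4-fold for Trim63 and 1.39-fold for Fbxo21, the extremes among the members. In KPC_UA, replicate 3 was highest for 6 members: Fbxo32, Trim63, Fbxo31, Fbxo21, Traf6 and Cblb. In Sham, replicate 1 was lowest for 9 members and highest for Stub1, though all members stayed within 1.53-fold. These shared orders come from the same libraries and are a description, not separate observations.

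Whether Trim63 and Fbxo32 changed in proportion was asked within each library, where the scaling of the library cancels. The Trim63 level was 1.69, 1.34, 1.31 and 1.23 times that of Fbxo32 in KPC_UA, 3.13, 1.02, 1.87 and 2.73 times in KPC, and 1.69, 1.77, 1.45 and 1.45 times in Sham. The KPC libraries held both the highest and the lowest ratio of the 12. The log2 ratio differed by 0.34 between KPC and Sham (p = 0.343, exact permutation, two-sided), by -0.54 between KPC_UA and KPC (p = 0.229, exact permutation) and by -0.20 between KPC_UA and Sham (p = 0.171, exact permutation). After adjustment over the 3 comparisons each exact p was 0.343, and 0.0286 was the smallest unadjusted p this design allows. Without KPC replicate 2, the library at 1.02, the differences became 0.67 and -0.87 in the comparisons that use KPC, each with that smallest exact p of 0.0286 before adjustment. That library had the lowest ratio of the 12, so leaving it out is not a test of its own. Over the fits with 1 library left out, the exact permutation p reached 0.686 in KPC against Sham. It reached 0.457 in KPC_UA against KPC.

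**Figure D4:**
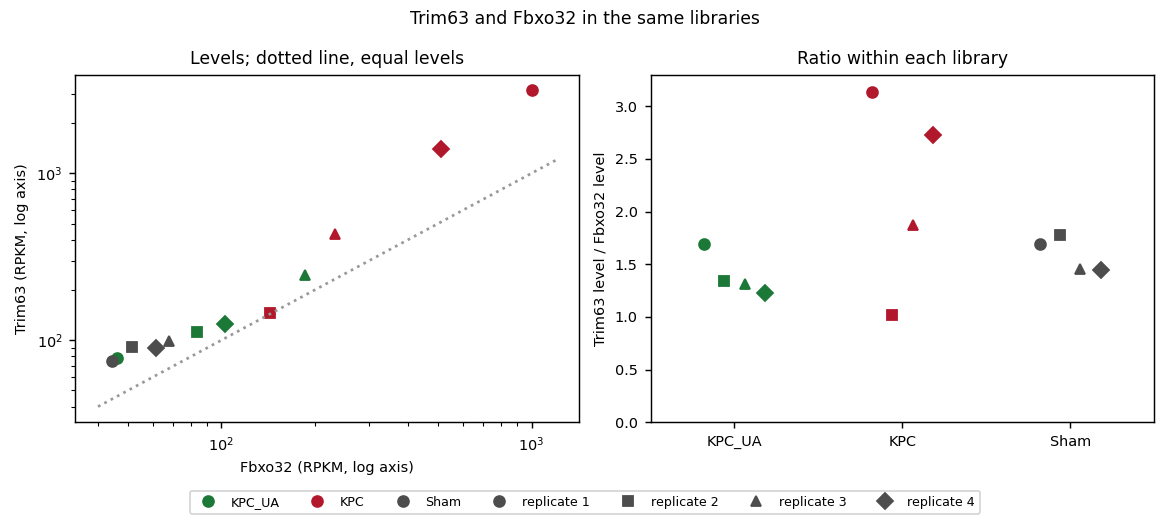
Left, level of Trim63 against Fbxo32 in RPKM in the 12 libraries (log axes; dotted line, equal levels); right, their ratio in each library (linear axis from 0). KPC replicates 1 and 4, at 3.13 and 2.73, have the highest ratios, and KPC replicate 2, at 1.02, has the lowest.

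Genes with the most similar profile over the 12 libraries were sought among 10056 genes, by the root mean square difference of log2 values after each gene was centred on its Sham mean. For Fbxo32 they were Acot2, a mitochondrial acyl-CoA thioesterase (0.32), Sesn1, a sestrin (0.36), Fkbp5, a cochaperone of steroid receptors (0.39), Retreg1, a receptor for autophagy of the endoplasmic reticulum (0.44), and Trim63 (0.45). For Trim63 they were Sesn1 (0.39), Fbxo32 (0.45), Acot2 (0.46), Spsb1, an adaptor of a cullin ligase (0.48), and Retreg1 (0.56). Acot2 has a close paralog, Acot1, so its reads may be split. Sesn1 stood 5.10, 1.17, 2.10 and 2.97 log2 units above its Sham mean in KPC replicates 1 to 4, next to 5.16, 0.73, 2.30 and 3.98 for Trim63. Of the other members, Fbxo31 was closest to both, at rank 154 for Fbxo32 and 171 for Trim63, and Trim32 was farthest, at ranks 9297 and 9334.

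The 6 lists of related genes were read beside the members, whose median in KPC against Sham was a log2 fold change of 0.76, against 0.01 over all genes tested. Members and lists were chosen with earlier results of these data known, so a difference from all genes is a description only. Among 23 other muscle ubiquitin ligases limma called 0 higher and 1 lower, with a median of 0.13; the authors' deposited table called 4 higher (Ube4b, Ubr2, Ubr4 and Siah1a, with adjusted p of 0.0207, 0.0292, 0.0416 and 0.0318) and 1 lower (Fbxl22, 8.58e-08). The 1 called was Fbxl22, an F-box protein of the Z-disc, at 0.239 ± 0.054 RPKM in KPC and 0.912 ± 0.156 RPKM in Sham (SD, n = 4 each), a log2 fold change of -1.89 ± 0.25 (adjusted p = 0.0255, limma). In KPC_UA it had 0.515 ± 0.173 RPKM, above every KPC library and below every Sham library, with log2 fold changes of 1.03 against KPC (adjusted p = 0.382, limma) and -0.85 against Sham (adjusted p = 0.366, limma). The next by p were Ube4b, a U-box enzyme that lengthens ubiquitin chains (0.97, adjusted p = 0.124, limma), and Ubr2, a ligase of the N-degron pathway (1.06, adjusted p = 0.137, limma). In KPC_UA the values of this pair were -0.87 and -0.83 against KPC, and 0.11 and 0.24 against Sham.

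The machinery around the F-box members was called in no comparison by limma. In KPC against Sham, the authors' deposited table called Cul1 (adjusted p of 0.0387), Sqstm1 (0.0105), Ube2j1 (0.0390), Ube2g1 (0.0404) and Usp14 (0.0295) as higher and Tab1 (0.0111) as lower, and none of these 3 lists' genes in the other comparisons. Among 13 scaffold and neddylation genes the median in KPC against Sham was -0.07. Cul1, the cullin that carries F-box proteins, had 39.5 ± 18.8 RPKM in KPC and 21.2 ± 1.72 RPKM in Sham (log2 fold change 0.81, adjusted p = 0.137, limma); KPC_UA gave -0.67 against KPC. Cand2, a muscle exchange factor for cullins, had -0.74 in KPC against Sham, and 0.59 when KPC_UA was set against KPC; Nae1, a subunit of the NEDD8-activating enzyme, had 0.35 and -0.34 in the same pair of comparisons. In KPC_UA against Sham these 3 had 0.15, -0.14 and 0.01. The 17 E2 enzymes, chaperones and signalling partners had a median of 0.01 in KPC against Sham, with Tab1, a partner downstream of Traf6, at -0.63 and the E2 enzymes Ube2j1 and Ube2g1 at 0.49 each. In KPC_UA these 3 had 0.43, -0.32 and -0.35 against KPC, and -0.20, 0.18 and 0.15 against Sham. Among 10 deubiquitinases the median in KPC against Sham was 0.16; Usp14 of the proteasome had 1.02, Usp9x 0.56 and Usp1 0.47. In KPC_UA they had -0.90, -0.43 and -0.40 against KPC, and 0.12, 0.14 and 0.07 against Sham.

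Among 11 genes for reported substrates, 0 were called by limma and the median in KPC against Sham was -0.10; the authors' deposited table called 1, Myl1, as lower (adjusted p of 0.0110). Groups without overlap on the lower side in KPC against Sham were seen for 2 of the 11, against 9.11% of all genes. These were the fast myosin light chains, lower in all 4 KPC libraries than in any Sham library. Myl1 had 2130 ± 223 RPKM in KPC and 3254 ± 432 RPKM in Sham (log2 fold change -0.60, adjusted p = 0.0901, limma). Mylpf had 3919 ± 884 RPKM in KPC and 5919 ± 772 RPKM in Sham (-0.61, adjusted p = 0.128, limma). Both were higher in all 4 KPC_UA libraries than in any KPC library, with log2 fold changes of 0.41 and 0.46 (adjusted p = 0.382 each, limma), and had -0.18 and -0.14 against Sham. They were the 2 of the 11 without overlap on the higher side in KPC_UA against KPC, against 3.78% of all genes. Myod1, the myogenic factor reported as a target of Fbxo32, had -1.60 in KPC against Sham (adjusted p = 0.133, limma). For Myod1, KPC_UA gave 1.18 against KPC and -0.41 against Sham. The remaining substrates went both ways in KPC against Sham. Irs1 had -0.99, Mybpc1 -0.15, Myh4 -0.10 and Mybpc2 -0.09, while Des had 0.13, Myh1 0.36, Eif3f 0.45 and Flnc 0.89.

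Of 20 upstream regulators, limma called 0 higher and 1 lower in KPC against Sham. Of the 20, 9 were higher without overlap, beside 10% of all genes, and the median was 0.48. This list too was chosen with earlier results known, so these values are a description. The authors' deposited table called 7 higher, among them Foxo1 (adjusted p of 0.000334), Foxo3 (0.000618), Klf15 (9.54e-05) and Myog (0.00310). It called 1 lower, Igf1 (1.73e-07). In KPC_UA against Sham it called 1 higher, Foxo1 (0.0194). In KPC against Sham limma gave Foxo1 1.84 (adjusted p = 0.0901) and Foxo3 1.69 (adjusted p = 0.0780). It gave Foxo4 0.28 and Nr3c1, the glucocorticoid receptor, -0.04. In KPC_UA, Foxo1 and Foxo3 had -0.92 and -1.08 against KPC, and 0.93 and 0.63 against Sham. Igf1, the growth factor whose signalling restrains FoxO, fell to 0.277 ± 0.085 RPKM in KPC, against 0.902 ± 0.125 RPKM in Sham (log2 fold change -1.71 ± 0.24, adjusted p = 0.0255, limma). In KPC_UA its log2 fold change was 0.89 against KPC (adjusted p = 0.382, limma) and -0.82 against Sham (adjusted p = 0.502, limma). Klf15, a factor induced by glucocorticoids, had 44.1 ± 28.2 RPKM in KPC and 11.2 ± 1.52 RPKM in Sham (1.78, adjusted p = 0.0540, limma), and KPC_UA gave -1.20 against KPC and 0.58 against Sham. Myog, myogenin, which activates Fbxo32 and Trim63 in denervated mouse muscle, had 2.27 ± 0.56 RPKM in KPC and 1.02 ± 0.20 RPKM in Sham (1.14, adjusted p = 0.0702, limma). In KPC_UA it had 2.07 ± 0.79 RPKM, with -0.18 against KPC and 0.97 against Sham (adjusted p = 0.332, limma). Neither called gene, Fbxl22 or Igf1, stayed called in limma when any Sham library, KPC replicate 3 or KPC replicate 4 was left out.

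**Figure D5:**
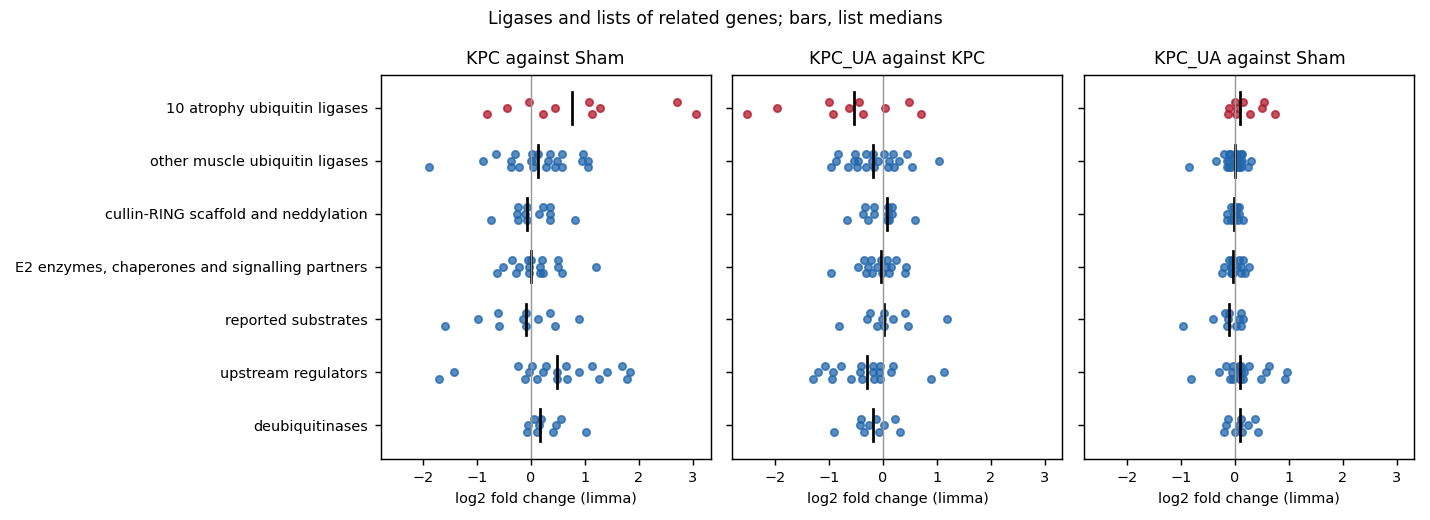
Log2 fold change (horizontal axis, limma) of each gene of the 10 atrophy ubiquitin ligases and of 6 lists of related genes in the 3 comparisons; black bars are list medians. The ligases have a median of 0.76 in KPC against Sham; for KPC_UA it is -0.54 against KPC and 0.10 against Sham.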

How the data were processed

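Bases were called with bcl2fastq 2.17 and reads counted with featureCounts of Subread 1.5.2 on GRCm38, per the submitters' processing notes; no label names the aligner or says whether strand was used. For each of the 3 comparisons the authors deposited a table with a signal for every gene in its 8 libraries, a log2 fold change, and p-values with adjusted p-values. Each deposited signal was a whole number of reads divided by a factor for that library (100% of values, tolerance 0.01 reads), set separately in each table, so tests were run within a table.

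Genes with a mean signal of at least 10 were tested with limma 3.58.1 (R 4.3.3; trend and robust estimation, two-sided) on log2(signal + 1), with Benjamini-Hochberg adjustment over all genes; fold changes are on that scale and understate those of low genes. All 10 members passed the filter. edgeR 4.0.16 and DESeq2 1.42.0 on recovered reads were alternatives. The fits were also run on simulated data with the same dispersion for every gene and library. That setting lacked the wide spread within KPC, so it cannot show which of the differing tests holds there. RPKM used union exons of GENCODE M21 and TMM library sizes. The members and lists were chosen with earlier results of these data known. Named genes were all members, the 3 genes of each list with the smallest p in KPC against Sham and any called, and the 5 nearest profiles (mean of at least 50). Some list genes called in the authors' deposited table, the FoxO genes, Nr3c1 and the remaining reported substrates were named as well. Promoter windows are from RefSeq.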

Additional observations from a re-analysis of the deposited data

Results flagged for a closer look

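In the 30 sets of 4 libraries (10 members in 3 groups), 3 had a library far from the other 3. For a single set of independent normal values, chance gives about 1 in 20. The 30 sets reuse the same 12 libraries and are not independent, so the count was not tested against that rate. Fbxo30 had 16.2 RPKM in KPC replicate 1, against 4.40 RPKM in the next KPC library. Fbxo40 had 40.4 RPKM in the same library, against 70.4 RPKM in the next. Stub1 had 26.9 RPKM in Sham replicate 1, against 21.3 RPKM in the next Sham library.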

How the results depend on the processing

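The count of members called in KPC against Sham was 1 and depended on the test. It was 0 with a mean of at least 50 (adjusted p of Fbxo32 0.0512), 0 in limma without trend and robust estimation (0.0558), 2 in edgeR, 4 in edgeR over all 12 libraries, 5 in DESeq2 and 5 by the authors' deposited p-values, and leaving out 1 library gave 0 to 3; the cause was not tested. Over all genes the count was 160 of 13542 (1.18%) in the main test and 87 with a mean of at least 50. It was 150 in limma without trend and robust estimation, 257 after quantile normalisation and 188 in edgeR. The tests that called 4 or 5 members also called many more genes. These were 1442 of 13244 in edgeR over all 12 libraries, 1595 in DESeq2 and 1595 of 13496 (11.8%) by the authors' deposited p-values. With 1 library left out the count was 0 to 1352 (395 without KPC replicate 1, 1352 without KPC replicate 2). In KPC_UA against KPC, DESeq2 and the authors' deposited p-values called 2 members each, and 100 and 99 genes. In KPC_UA against Sham they called 94 genes each. Same-numbered libraries did not deviate together (correlations of -0.26 to 0.13); with the replicate number as a block 0 members and 66 genes were called in KPC against Sham, and no other count of members changed. The log2 ratio of Trim63 to Fbxo32 differed by 0.13 to 0.67 in KPC against Sham and by -0.87 to -0.33 in KPC_UA against KPC with 1 library left out. Values near 0 changed sign: Fbxo40 in KPC_UA against Sham was -0.052 after quantile normalisation and -0.0027 in edgeR over all 12 libraries. With 1 library left out, Fbxo40 ran from -0.12 to 0.16 in KPC against Sham and from -0.17 to 0.12 in KPC_UA against KPC, and Traf6 from -0.055 to 0.42 in KPC against Sham. In KPC_UA against Sham such fits gave -0.079 to 0.074 for Fbxo40, -0.10 to 0.079 for Fbxo21 and -0.039 to 0.16 for Stub1. The lowest read count of a member was 53, for Trim32 in KPC replicate 1.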
